A study of Mus musculus with 8 samples.

Results

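The insulin signalling genes described here are the receptor gene *Insr*, the adaptor genes *Irs1* and *Irs2*, the kinase gene *Akt2*, the PI3K subunit gene *Pik3r1*, the transcription factor gene *Foxo1*, and *Igfbp1*, *Igfbp2* and *Trib1*, which were grouped with them as genes of the fasting response. They were chosen by gene symbol, as 9 of the 46078 identifiers with counts, and each of the 9 was among the 13856 genes with enough reads to be tested. The study compared livers of mice with and without the splicing factor RBFOX2 in hepatocytes. RNA-seq was made from 8 livers of mice on a control diet (CD), 4 wild-type and 4 Rbfox2 knockout, with 1 library per liver. All mice carried *Rbfox2* alleles flanked by loxP sites, and the Rbfox2 knockout mice also carried a Cre recombinase under the albumin promoter, which is active in hepatocytes, so other liver cells kept the gene. By the labels, the mice had been on the diet for 12 weeks, and the series text has them fasted for 16 h. Values are read counts scaled to library size (CPM) with TMM factors, and n = 4 livers per genotype throughout.

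Insulin binds its receptor, which phosphorylates the adaptors IRS1 and IRS2, and these recruit PI3K, whose lipid product activates AKT, mainly AKT2 in the liver. AKT phosphorylates FOXO1 and keeps it out of the nucleus. When insulin is low, as in fasting, FOXO1 stays on DNA and raises *Igfbp1*, *Irs2* and other genes of the fasted liver.

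The promoter windows of 4 of these genes are shown because they hold matches to a binding sequence of FOXO factors or to the E-box, a sequence bound by bHLH factors such as SREBP1 and USF. Each window runs 5′ to 3′ from 250 bases before to 50 bases after a start site in RefSeq (GRCm38.p6), on the gene's strand. They are chr1:82291390-82291689 on the minus strand for *Irs1*, chr8:11008880-11009179 on the minus strand for *Irs2*, chr11:7197537-7197836 on the plus strand for *Igfbp1* and chr1:72824230-72824529 on the plus strand for *Igfbp2*. Capitals mark TGTTTTG, the core of the insulin response element (CAAAACA when read on the other strand), and CACGTG, the E-box.
Irs1: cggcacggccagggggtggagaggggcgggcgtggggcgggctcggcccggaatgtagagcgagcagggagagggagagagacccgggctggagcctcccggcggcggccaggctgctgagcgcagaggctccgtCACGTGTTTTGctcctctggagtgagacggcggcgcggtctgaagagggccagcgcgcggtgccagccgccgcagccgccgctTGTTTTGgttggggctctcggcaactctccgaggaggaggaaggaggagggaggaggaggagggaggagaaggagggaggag
Irs2: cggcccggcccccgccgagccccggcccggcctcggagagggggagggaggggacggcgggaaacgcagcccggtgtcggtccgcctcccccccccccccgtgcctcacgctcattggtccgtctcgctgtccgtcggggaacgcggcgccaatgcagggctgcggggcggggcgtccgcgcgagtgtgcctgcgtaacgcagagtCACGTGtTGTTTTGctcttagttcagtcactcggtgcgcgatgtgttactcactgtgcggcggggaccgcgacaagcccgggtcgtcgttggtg
Igfbp1: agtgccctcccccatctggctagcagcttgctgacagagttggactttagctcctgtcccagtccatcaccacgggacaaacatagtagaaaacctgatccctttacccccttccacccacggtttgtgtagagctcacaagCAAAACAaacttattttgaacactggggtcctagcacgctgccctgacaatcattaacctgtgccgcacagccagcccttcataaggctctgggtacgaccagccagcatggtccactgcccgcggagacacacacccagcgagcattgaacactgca
Igfbp2: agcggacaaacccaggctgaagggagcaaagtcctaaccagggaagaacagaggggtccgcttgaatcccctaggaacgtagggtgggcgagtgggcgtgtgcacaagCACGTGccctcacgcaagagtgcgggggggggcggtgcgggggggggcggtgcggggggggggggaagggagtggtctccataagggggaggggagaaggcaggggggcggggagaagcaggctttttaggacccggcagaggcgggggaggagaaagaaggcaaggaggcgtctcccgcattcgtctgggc

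The promoter table matched 7 of the 9 genes, with 12 windows, and *Insr* and *Trib1* had no entry. In both strands, TGTTTTG was in 1 window each of 3 genes, out of the 12 windows. It lay at −111 and −32 bases from the start of *Irs1*, at −37 in *Irs2* and, as CAAAACA, at −108 in *Igfbp1*. It was present in 6.28% of all 32851 promoter windows of this length. The E-box was also in 1 window each of 3 genes, at −115 in *Irs1*, −44 in *Irs2* and −142 in *Igfbp2*, against 7.15% of all windows. In *Irs1* the E-box shared 2 bases with the first TGTTTTG, and in *Irs2* the pair stood 1 base apart. Both motifs occurred together, at any distance, in 0.408% of all windows. The other forkhead core searched, TGTTTAC (3.65% of all windows), and the cAMP response element TGACGTCA (1.79%) were in 0 of the 12 windows. These matches describe letters and not bound sites.

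*Rbfox2* mRNA, the check of the genotype, was at 14.3 ± 3.96 CPM (SD) in wild-type and 4.03 ± 1.68 CPM in Rbfox2 knockout livers, with no overlap. Library totals were between 37482458 and 56177588 counts, and 3 counts, taken as the lower limit of detection, equalled between 0.0468 and 0.0929 CPM (counting error only). The major urinary protein (*Mup*) genes took between 21.4% and 43.6% of a library, with Rbfox2 knockout 3 at 43.6% and Rbfox2 knockout 4 at 37.5%. These 2 libraries had the lowest TMM factors, 0.724 and 0.776, while wild-type 1, with 37.1% *Mup* counts, had a factor of 1.02. Summed hepatocyte markers (7 genes) were at 43500 to 63800 CPM in wild-type and 48400 to 69000 CPM in Rbfox2 knockout livers. *Ins2* and *Gcg*, the pancreatic hormone genes, had 0 counts in every liver. The labels do not say more of the mice behind each library. *P* values set the difference between genotypes against the spread between these livers, which also holds differences between their libraries.

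No insulin signalling gene differed between genotypes at the adjusted threshold. In the quasi-likelihood test of edgeR, 0 of the 9 genes reached an adjusted *P* of 0.05 or less (Benjamini-Hochberg), as did 0% of all genes tested. *Rbfox2* itself had a log2 fold change of −1.82 and an adjusted *P* of 0.504 in this test. Missing this threshold therefore does not show that a gene is unchanged. *Igfbp2* and *Trib1* were at an unadjusted *P* under 0.05 by the edgeR test, *Igfbp2* with the higher mean and *Trib1* with the lower mean in Rbfox2 knockout livers. Of all genes tested, 9.79% were at that unadjusted level (1356 genes), 7.95% with higher and 1.83% with lower values in Rbfox2 knockout livers. The limma-voom test gave 0 genes at the adjusted threshold and 979 at an unadjusted *P* under 0.05, and DESeq2 gave 10 and 1565. The log2 fold change was below 0 for 7 of the 9 genes, against 51.6% of all genes tested. Its median over the 9 genes was −0.17, beside −0.0153 over all genes tested. After the length and GC content corrections it was below 0 for 5 of the 9 genes (median −0.03), against 47.5% of all genes tested (median 0.02).

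**Figure D1:**
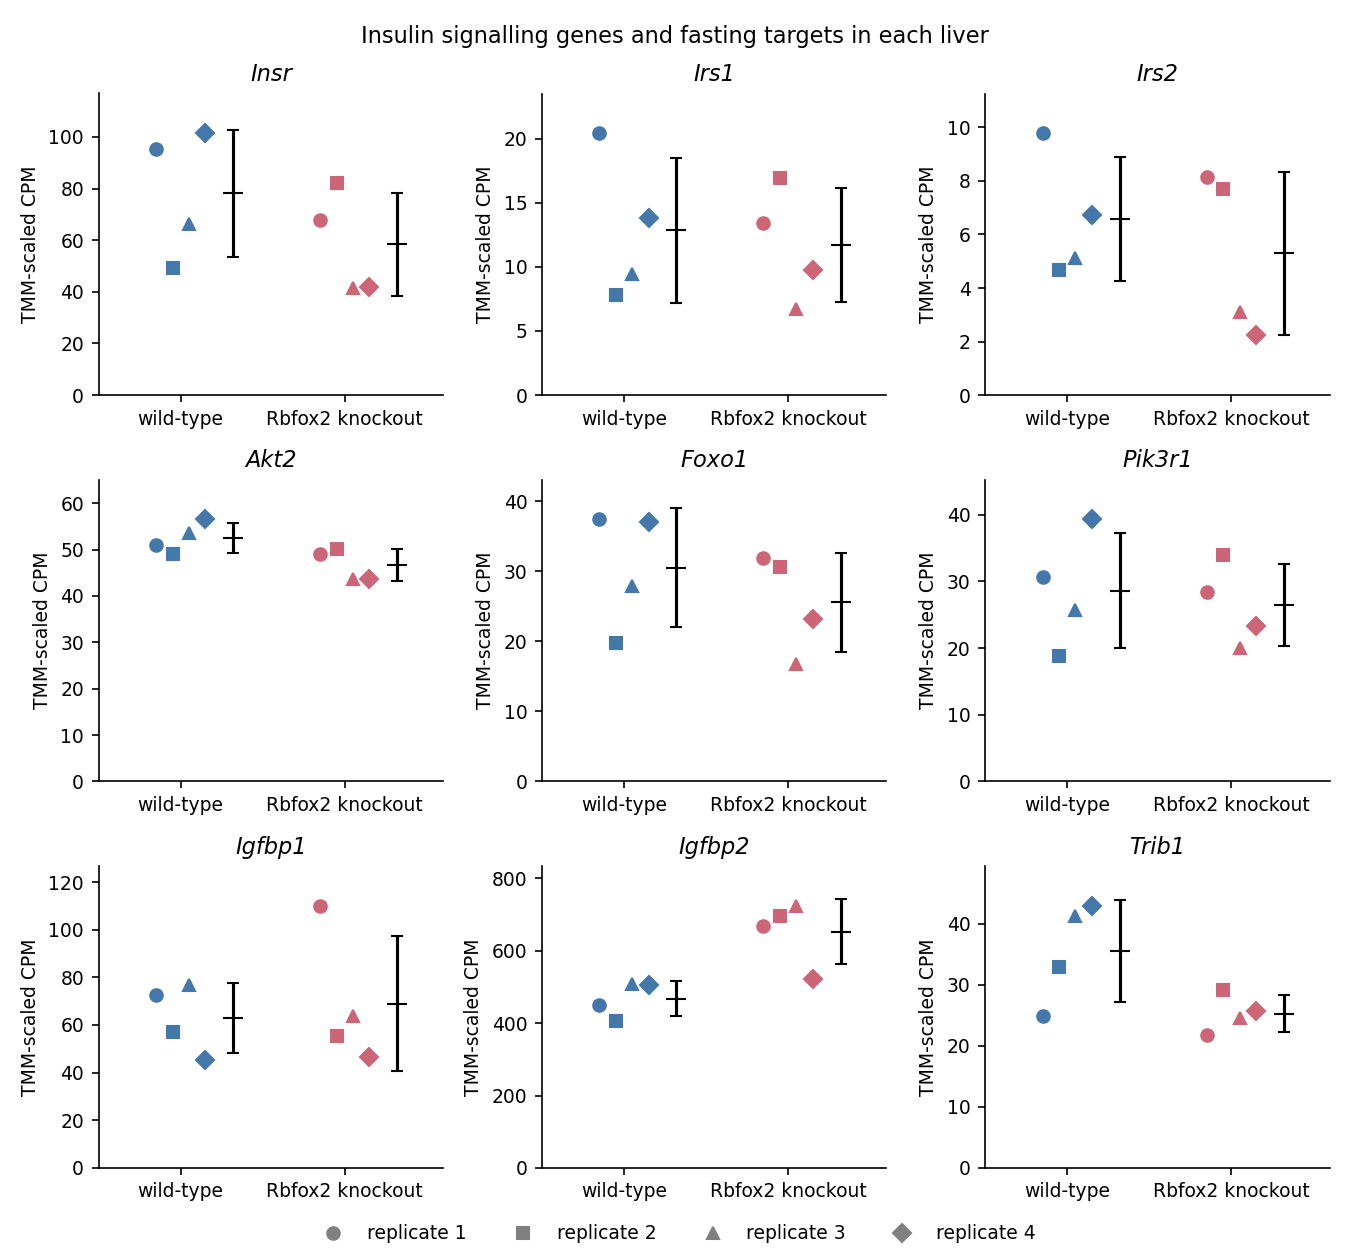
TMM-scaled CPM (vertical axes, from 0) of the 9 genes in each wild-type (blue) and Rbfox2 knockout (red) liver, with the marker shape giving the replicate number and black bars the mean and SD of 4 livers. *Igfbp2* is the only one of the 9 whose genotypes do not overlap, at 407 to 508 CPM in wild-type and 521 to 725 CPM in Rbfox2 knockout livers.

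*Igfbp2* encodes a secreted binding protein of the insulin-like growth factors that the liver releases into the blood. *Igfbp2* (ENSMUSG00000039323, chr1:72824503-72852474, plus strand, GRCm38) was at 451, 407, 508 and 504 CPM in wild-type replicates 1 to 4. In Rbfox2 knockout replicates 1 to 4 it was at 668, 696, 725 and 521 CPM. The genotypes did not overlap, and the nearest livers were wild-type 3 and Rbfox2 knockout 4. Of all genes tested, 2.28% had genotypes without overlap. The mean was 468 ± 47.9 CPM (SD) in wild-type and 653 ± 90.5 CPM in Rbfox2 knockout livers, which is 1.40-fold. The log2 fold change was 0.48 (SE 0.17, limma-voom 95% interval 0.09 to 0.86), with an adjusted *P* of 0.504 from edgeR. A two-sided exact permutation test of the log2 values gave *P* = 0.0286, which is the lowest possible value with 4 livers per genotype. Any gene whose genotypes do not overlap gets this value, so it restates the lack of overlap and adds no support. The unadjusted edgeR *P* was no longer under 0.05 with a correction of each library for gene length, where the log2 fold change was 0.29. The same held with the replicate number as a block (0.48), without wild-type 1 (0.44), without wild-type 2 (0.43) and without Rbfox2 knockout 3 (0.40). It stayed under 0.05 with the GC content correction (0.68) and with the length and GC content corrections together (0.58). Its counts, between 16840 and 44605 per liver, make counting error small beside these differences.

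*Igfbp1*, the classic FOXO1 target of the family, overlapped between genotypes. *Igfbp1* (ENSMUSG00000020429, chr11:7197782-7202546, plus strand) was at 72.7, 57.0, 76.7 and 45.2 CPM in wild-type replicates 1 to 4. In the Rbfox2 knockout livers it was at 110.1, 55.3, 64.0 and 46.5 CPM, in the same order. Rbfox2 knockout 1 stood above every other liver, and the remaining 3 knockout livers lay within the wild-type range. Its mean was 62.9 ± 14.5 CPM (SD) in wild-type and 69.0 ± 28.3 CPM in Rbfox2 knockout livers, a log2 fold change of 0.13 (SE 0.28, limma-voom 95% interval −0.54 to 0.71, edgeR adjusted *P* = 0.838). It was −0.18 without Rbfox2 knockout 1, −0.09 with the length correction and −0.07 with the length and GC content corrections. Its direction thus depended on that liver and on the processing. The ratio of *Igfbp1* to *Igfbp2* CPM was 0.161, 0.140, 0.151 and 0.0897 in wild-type and 0.165, 0.0793, 0.0882 and 0.0892 in Rbfox2 knockout livers, and the genotypes overlapped.

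Each of these genes has another family member beside it. *Igfbp3* lies 3539 bases from *Igfbp1* on the opposite strand, at 7.20 ± 2.99 CPM (SD) in wild-type and 7.73 ± 3.27 CPM in Rbfox2 knockout livers (log2 fold change 0.10, edgeR adjusted *P* = 0.905). *Igfbp5* lies 5457 bases from *Igfbp2* on the opposite strand, at 2.65 ± 0.898 and 2.35 ± 0.627 CPM (log2 fold change −0.17, exact permutation *P* = 0.657). Both were named for their position, after their values were seen, and the genotypes overlapped for each.

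*Trib1* encodes a Tribbles pseudokinase that brings the ubiquitin ligase COP1 to C/EBP transcription factors, and it was the other gene of the 9 at an unadjusted *P* under 0.05. *Trib1* (ENSMUSG00000032501, chr15:59648350-59657099, plus strand) was at 24.9, 32.9, 41.2 and 43.0 CPM in wild-type replicates 1 to 4. In the Rbfox2 knockout livers it was at 21.8, 29.1, 24.5 and 25.7 CPM. Wild-type 1 lay among the knockout livers, below Rbfox2 knockout 2 and 4, so the genotypes overlapped through this liver. The mean was 35.5 ± 8.35 CPM (SD) in wild-type and 25.3 ± 3.05 CPM in Rbfox2 knockout livers, or 71.2% of wild-type. This gave a log2 fold change of −0.49 (SE 0.20, limma-voom 95% interval −0.92 to −0.01), with an adjusted *P* of 0.504 from edgeR. The exact two-sided permutation test gave *P* = 0.0857. The unadjusted edgeR *P* was under 0.05 in 11 of the 21 alternatives tried, and not with the length correction alone (log2 fold change −0.35) or together with that for GC content (−0.22). It was also above 0.05 without wild-type 3 (−0.40), wild-type 4 (−0.38) or Rbfox2 knockout 1 (−0.42), 3 (−0.50) or 4 (−0.49).

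The receptor and its adaptors had lower means in Rbfox2 knockout livers, with differences smaller than the spread between livers. *Insr* (ENSMUSG00000005534, chr8:3122061-3279617, minus strand) encodes the insulin receptor and was at 95.5, 49.3, 66.3 and 101.6 CPM in wild-type replicates 1 to 4. In the Rbfox2 knockout livers it was at 67.9, 82.2, 41.6 and 41.8 CPM. Wild-type 1 and 4 were highest, Rbfox2 knockout 3 and 4 lowest, and the other 4 livers mixed. The means, 78.2 ± 24.7 CPM (SD) in wild-type and 58.4 ± 20.1 CPM in Rbfox2 knockout livers, gave a log2 fold change of −0.42 (SE 0.30, limma-voom 95% interval −1.10 to 0.23, edgeR adjusted *P* = 0.579, exact permutation *P* = 0.286). After the length and GC content corrections it was −0.22.

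*Irs1* (ENSMUSG00000055980, chr1:82233101-82291416, minus strand) encodes one of the main IRS adaptors and was at 20.5, 7.77, 9.42 and 13.8 CPM in wild-type livers. The Rbfox2 knockout livers had 13.4, 16.9, 6.72 and 9.72 CPM, a range within that of wild-type apart from Rbfox2 knockout 3. For *Irs1* the log2 fold change was −0.13 (SE 0.36, limma-voom 95% interval −0.88 to 0.71, edgeR adjusted *P* = 0.874). Its sign turned with the gene length correction (0.07), without wild-type 1 (0.16) and without Rbfox2 knockout 3 (0.03).

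*Irs2* (ENSMUSG00000038894, chr8:10984681-11008458, minus strand) encodes the other hepatic adaptor, which fasting raises through FOXO1. It was at 9.80, 4.66, 5.14 and 6.72 CPM in wild-type livers and at 8.13, 7.68, 3.11 and 2.26 CPM in Rbfox2 knockout livers. The knockout livers fell into a pair above 3 of the wild-type livers and a pair below all 4. The highest liver had 4.34 times the level of the lowest, the widest spread of the 9 genes. Between genotypes the log2 fold change was −0.30 (SE 0.42, limma-voom 95% interval −1.32 to 0.56, edgeR adjusted *P* = 0.745, exact permutation *P* = 0.429). The value was −0.05 without Rbfox2 knockout 4, −0.15 without Rbfox2 knockout 3, −0.07 without wild-type 1, −0.58 without Rbfox2 knockout 1, −0.54 without Rbfox2 knockout 2, and −0.03 after the length and GC content corrections. The ratio of *Irs2* to *Irs1* CPM was between 0.454 and 0.607 in 7 of the livers and 0.233 in Rbfox2 knockout 4.

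Exons of *Irs1*, *Irs2* and *Foxo1* overlap annotated genes on the opposite strand (*Gm9747*, *9530052E02Rik* and *Gm20402*). The strand setting of the counting is not given in the sources used here, so reads in these overlaps are uncertain.

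The genes of the kinase steps and *Foxo1* overlapped between genotypes. *Pik3r1* (ENSMUSG00000041417, chr13:101680563-101768217, minus strand), which encodes the p85α regulatory subunit of PI3K, was at 30.7, 18.8, 25.7 and 39.3 CPM in wild-type and 28.5, 34.0, 20.1 and 23.3 CPM in Rbfox2 knockout livers. Every knockout liver lay within the wild-type range. Its log2 fold change was −0.11 (SE 0.25, limma-voom 95% interval −0.65 to 0.47, edgeR adjusted *P* = 0.843, exact permutation *P* = 0.743). It was 0.10 with the gene length correction and 0.08 without wild-type 4.

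*Akt2* (ENSMUSG00000004056, chr7:27591552-27640826, plus strand) was the steadiest of the 9, with its highest liver at 1.30 times the lowest. It was at 50.9, 49.0, 53.5 and 56.5 CPM in wild-type and 49.1, 50.1, 43.6 and 43.7 CPM in Rbfox2 knockout livers. Rbfox2 knockout 1 and 2 lay between wild-type 2 and wild-type 1, and Rbfox2 knockout 3 and 4 were below. For *Akt2* the log2 fold change was −0.17 (SE 0.14, limma-voom 95% interval −0.49 to 0.14, edgeR adjusted *P* = 0.618, exact permutation *P* = 0.0857), and 0.15 after the length and GC content corrections. *Foxo1* (ENSMUSG00000044167, chr3:52268336-52353221, plus strand) was at 37.4, 19.7, 27.9 and 37.1 CPM in wild-type and 31.9, 30.6, 16.7 and 23.2 CPM in Rbfox2 knockout livers. Its genotypes overlapped, with Rbfox2 knockout 3 the lowest liver. Its log2 fold change was −0.25 (SE 0.27, limma-voom 95% interval −0.85 to 0.36, edgeR adjusted *P* = 0.678, exact permutation *P* = 0.429). It was −0.06 with the length correction, −0.08 with both corrections and −0.12 without Rbfox2 knockout 3.

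**Figure D2:**
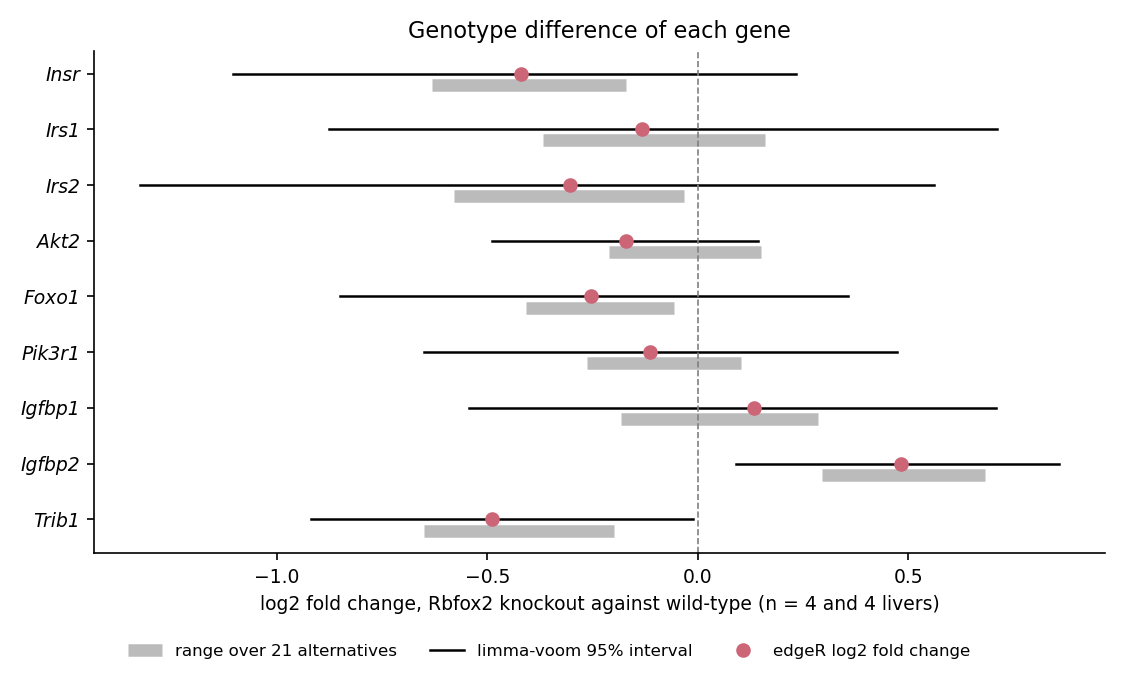
Log2 fold change of Rbfox2 knockout against wild-type livers for each gene (red points, edgeR), with the limma-voom 95% interval (black lines) and the range over 21 alternatives (grey bars). The interval lies above 0 for *Igfbp2* (0.09 to 0.86), just below 0 for *Trib1* (−0.92 to −0.01), and spans 0 for the other 7 genes.

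Per kilobase of exon, the binding protein mRNAs stood far above the signalling mRNAs. In wild-type livers *Igfbp2* was at 253 ± 25.96 CPM per kilobase (SD) and *Igfbp1* at 41.3 ± 9.52, followed by *Akt2* at 7.36 ± 0.457 and *Insr* at 5.69 ± 1.80. *Trib1* was at 5.68 ± 1.34, *Foxo1* at 3.52 ± 0.976, *Pik3r1* at 2.84 ± 0.855, *Irs1* at 1.41 ± 0.619 and *Irs2* at 1.04 ± 0.367 CPM per kilobase. The means had this order in Rbfox2 knockout livers too, from 353 ± 49.0 CPM per kilobase for *Igfbp2* to 0.838 ± 0.481 for *Irs2*. The wild-type ranges of *Igfbp2*, *Igfbp1* and *Akt2* did not overlap each other. From *Akt2* down, each gene overlapped the next in wild-type livers. In Rbfox2 knockout livers *Akt2* (6.12 to 7.02 CPM per kilobase) also stood clear of *Insr* (3.03 to 5.98), as did *Pik3r1* (1.99 to 3.37) of *Irs1* (0.735 to 1.85), while the other neighbours below *Insr* overlapped.

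**Figure D3:**
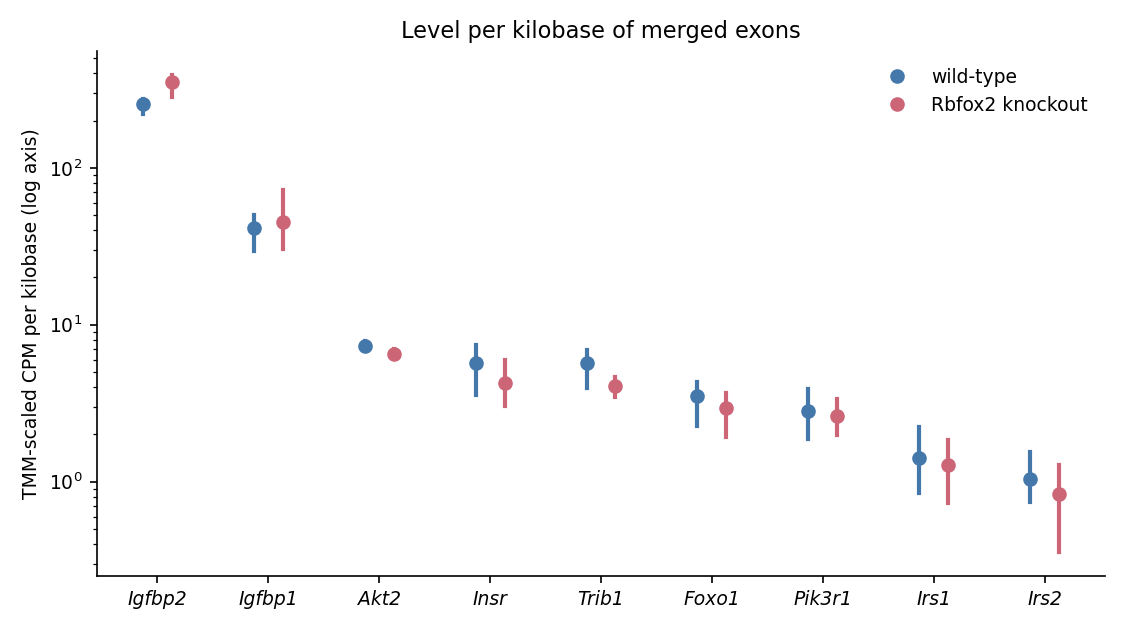
Level of each gene per kilobase of merged exons (log axis) in wild-type (blue) and Rbfox2 knockout (red) livers, as the mean (points) and the range of 4 livers (lines). *Igfbp2* (253 and 353 CPM per kilobase) and *Igfbp1* (41.3 and 45.2) lie above the 7 other genes, which are at most at 7.93 in any liver.

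The same livers were high or low for several of these genes. Wild-type 1, wild-type 4 and Rbfox2 knockout 2 were the 3 highest livers for *Insr*, *Irs1* and *Pik3r1*. Rbfox2 knockout 3 was the lowest liver for *Insr*, *Irs1*, *Akt2* and *Foxo1*, and the second lowest for *Irs2* and *Pik3r1*. Across the 8 livers, Pearson's r of log2 CPM between *Insr*, *Irs1*, *Irs2*, *Foxo1* and *Pik3r1* was between 0.68 and 0.93, and that of *Igfbp2* with these 5 genes between −0.14 and 0.12. After the length and GC content corrections the range between the first 5 genes was 0.35 to 0.77. For *Akt2* with these 5 genes it was 0.50 to 0.85 before the corrections and −0.84 to −0.63 after them. These are descriptions over points that share library depth, composition and transcript length.

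A measure of the libraries moved with this pattern. Among all genes tested, the upper quartile of exon length (6466 bases or more) had a median deviation from the gene mean of 0.30 (log2) in wild-type 1, 0.28 in wild-type 4 and 0.20 in Rbfox2 knockout 2. It was −0.32 in Rbfox2 knockout 3, −0.21 in Rbfox2 knockout 4 and −0.19 in wild-type 2. The lower quartile (2369 bases or less) had the opposite sign in these 6 livers, from −0.31 in wild-type 1 to 0.38 in Rbfox2 knockout 4. *Insr* (13746 bases), *Pik3r1* (10079), *Irs1* (9144), *Foxo1* (8665) and *Akt2* (7131) belong to the upper quartile, and *Igfbp2* (1847) and *Igfbp1* (1525) to the lower. With each library corrected for length and GC content, the SD of *Insr* between wild-type livers was 0.20 instead of 0.49 on the log2 scale, and that of *Foxo1* was 0.26 instead of 0.44. For *Akt2* it was 0.19 instead of 0.09, and for *Igfbp2* 0.14 instead of 0.15.

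**Figure D4:**
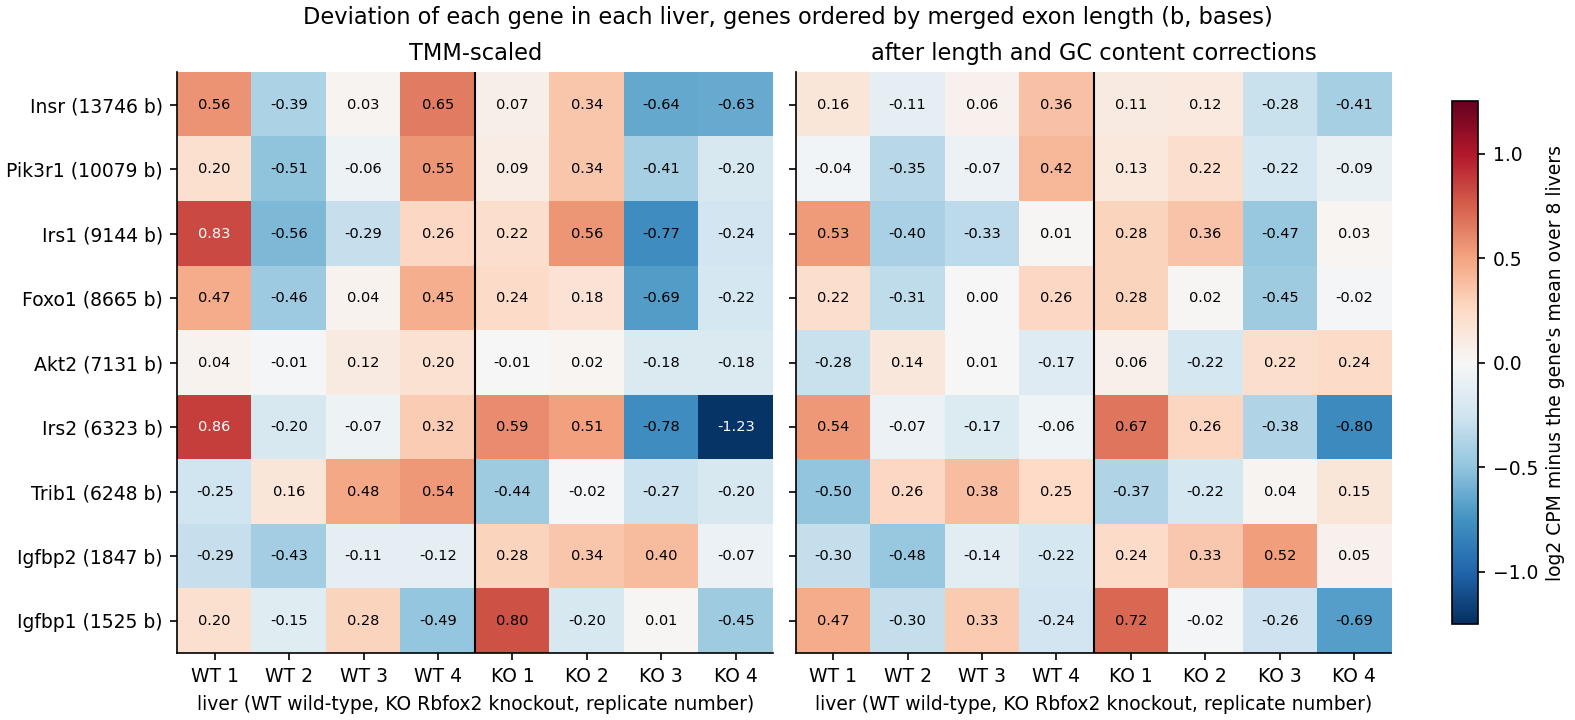
Deviation of log2 CPM from the mean of 8 livers for each gene (rows, ordered by merged exon length in bases) in each liver (columns), before (left) and after (right) the length and GC content corrections, with red above and blue below the mean. *Insr* in Rbfox2 knockout 3 is at −0.64 before and −0.28 after, while *Igfbp2* stays below its mean in the 4 wild-type livers in both panels.

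Predicted genes and *Mup* genes were passed over in a search for genes whose log2 CPM followed each member most closely over the 8 livers. The closest remaining gene was *Stk11* for *Insr* (Pearson's r = 0.996), *Wdr33* for *Irs1* (0.985), *Ssbp3* for *Irs2* (0.983) and *Maco1* for *Akt2* (0.982). For *Foxo1* it was *Myrf* (0.995) and for *Trib1* *Anapc5* (0.971). The closest partners of the binding protein genes were less close, *Tfec* for *Igfbp1* (0.931) and *Mansc1* for *Igfbp2* (0.919). None of these partners belongs to the pathway lists.

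The wider pathway was described by 9 lists with 136 genes, of which 127 could be tested. At an unadjusted *P* under 0.05 there were 13 (10.2%, against 9.79% of all genes), 6 with higher and 7 with lower values in Rbfox2 knockout livers, and 0 passed the adjusted threshold by the edgeR test. Without the 9 members these were 11 of 118 (9.32%), 5 higher and 6 lower, each with an adjusted *P* of 0.504. Of these 11, *Cebpb*, *Cited2* and *Nnmt* stayed at that level in each of the 21 alternatives, and the other 8 left it without at least 2 of the single livers. With the length and GC content corrections together, *Ptpn2* (log2 fold change 0.21), *Pik3cd* (−0.48), *Socs3* (−0.61) and *Tsc1* (−0.35) also left it. *Bcl6*, *Inpp4a*, *Klf9* and *Pik3c2a* did not, but *Pik3c2a* left it with the GC content correction alone (0.14). Against 51.6% of all genes tested, the log2 fold change was below 0 for 68.5% of the tested pathway genes, with a median of −0.15. With each library corrected for length and GC content it was below 0 for 53.5% of them (median −0.01), against 47.5% of all genes tested. In the uncorrected values, the genotypes did not overlap for 8 of the 127 genes (6.30%, against 2.28% of all genes tested), 3 with higher and 5 with lower values.

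Among receptors and adaptors, 13 of 16 genes could be tested. Each had a log2 fold change below 0 (median −0.21), against 51.6% of all genes tested. At an unadjusted *P* under 0.05 by edgeR were 0 of the 13, against 9.79% of all genes. With the length and GC content corrections 8 of the 13 were below 0 (61.5%, against 47.5% of all genes tested), with a median of −0.03. *Irs1* and *Gab2* were among those above. Outside the members the smallest *P* belonged to *Sh2b2* (log2 fold change −0.63) and *Cbl* (−0.74), both adaptor genes. The gene of the IGF1 receptor, *Igf1r*, had too few counts to be tested, at 0.0201 to 0.276 CPM.

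Among 14 tested inhibitors of the receptor, 1 was higher and 1 lower at the unadjusted level (14.3%, against 9.79% of all genes). The median log2 fold change was −0.10. *Ptpn2*, a tyrosine phosphatase gene, was at 5.97 ± 0.593 CPM (SD) in wild-type and 8.53 ± 1.85 CPM in Rbfox2 knockout livers (log2 fold change 0.51, exact permutation *P* = 0.0857). *Socs3*, a cytokine-induced inhibitor of receptor signalling, was at 4.78, 3.86, 6.30 and 5.37 CPM in wild-type and 1.26, 3.53, 3.34 and 3.44 CPM in Rbfox2 knockout livers. Its genotypes did not overlap (log2 fold change −0.81, exact permutation *P* = 0.0286). Both genes, like most list genes below, were named for a small edgeR *P* in these same livers. A permutation *P* is therefore no separate support for them, and without overlap it is fixed at 0.0286.

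Of 12 tested PI3K subunits and lipid phosphatases, 1 was higher and 2 were lower at the unadjusted level (25.0%, against 9.79% of all genes). The median log2 fold change was −0.26. *Pik3c2a*, a class II PI3K, was at 30.8 ± 1.89 CPM (SD) in wild-type and 39.4 ± 5.04 CPM in Rbfox2 knockout livers (log2 fold change 0.35, exact permutation *P* = 0.0286), with no overlap. *Pik3cd*, a catalytic subunit known from leukocytes, was at 1.01 ± 0.260 and 0.579 ± 0.181 CPM (log2 fold change −0.79, exact permutation *P* = 0.0286), also with no overlap. The Kupffer cell markers, the liver's macrophages, summed to 65.0 to 116 CPM in wild-type and 37.1 to 78.3 CPM in Rbfox2 knockout livers. Of these 7 markers 1 was lower at an unadjusted edgeR *P* under 0.05, *Clec4f* (log2 fold change −0.73), and the others were at 0.159 or more. The log2 fold change was below 0 for 5 of the 7 and above 0 for 2, up to 0.48. The part of these cells in the values of *Pik3cd* was not tested, and in whole liver fewer cells of a type and less RNA per cell cannot be told apart. The other lower gene was *Inpp4a*, a lipid phosphatase, at 14.4 ± 7.28 and 7.65 ± 3.14 CPM (SD; log2 fold change −0.91, exact permutation *P* = 0.171).

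Of 25 tested genes of AKT, its kinases and its targets, 1 was at the unadjusted level (4.0%, against 9.79% of all genes). It was *Tsc1*, a brake on mTORC1, at 16.6 ± 7.29 CPM (SD) in wild-type and 10.3 ± 1.98 CPM in Rbfox2 knockout livers (log2 fold change −0.69, exact permutation *P* = 0.171). *Eif4ebp1*, a translation repressor that mTORC1 phosphorylates, was at 19.9 ± 3.24 and 26.6 ± 5.10 CPM (0.42, exact permutation *P* = 0.0857). *Akt1*, the kinase beside AKT2 in many tissues, was at 27.3 ± 1.87 and 26.3 ± 3.51 CPM (−0.05, exact permutation *P* = 0.629) and was named after its value was seen.

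Against 51.6% of all genes tested, each of the 12 tested FOXO factors and partners had a log2 fold change below 0 (median −0.26). At an unadjusted *P* under 0.05 was 1 of them (8.33%, against 9.79% of all genes). With the length and GC content corrections 11 of the 12 were below 0 (median −0.10), all but *Foxo3*, against 47.5% of all genes tested. The gene at an unadjusted *P* under 0.05 was *Cebpb*, a C/EBP factor that is also a target of Tribbles proteins. It was at 75.2, 74.6, 94.2 and 115 CPM in wild-type and 48.7, 75.1, 55.7 and 50.6 CPM in Rbfox2 knockout livers. Rbfox2 knockout 2 alone reached the wild-type range. The difference of −0.64 (log2, SE 0.21) had an exact permutation *P* of 0.0571, and the unadjusted edgeR *P* stayed under 0.05 in each of the 21 alternatives (−0.86 to −0.43). *Foxa2*, a forkhead partner, was at 14.5 ± 4.04 and 10.4 ± 1.49 CPM (SD; −0.48, exact permutation *P* = 0.0857). In the Tribbles list 2 of 6 tested genes, *Trib1* and *Cebpb*, were at an unadjusted *P* under 0.05 (33.3%, against 9.79% of all genes). *Trib2* of this list was at 1.01 ± 0.402 and 0.580 ± 0.209 CPM (−0.78, exact permutation *P* = 0.143).

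The 26 tested FOXO targets raised by fasting did not share a direction. Of these, 13 had a log2 fold change above and 13 below 0 (median −0.00338). At the unadjusted level 3 were higher and 2 lower (19.2%, against 9.79% of all genes). *Nnmt*, a nicotinamide methyltransferase gene, was at 144, 108, 148 and 147 CPM in wild-type and 376, 138, 329.5 and 274 CPM in Rbfox2 knockout livers (log2 fold change 1.03, SE 0.29, exact permutation *P* = 0.114). Rbfox2 knockout 2 lay within the wild-type range and the other knockout livers were above it. *Cited2*, a transcriptional co-regulator, was at 7.13, 4.74, 8.69 and 7.44 CPM in wild-type and 12.7, 11.6, 10.3 and 10.3 CPM in Rbfox2 knockout livers, with no overlap (0.68, SE 0.21, exact permutation *P* = 0.0286). For both genes the unadjusted edgeR *P* stayed under 0.05 in each of the 21 alternatives.

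*Bcl6*, a transcriptional repressor, had the third higher value of this list, at 5.46 ± 3.34 CPM (SD) in wild-type and 15.2 ± 11.2 CPM in Rbfox2 knockout livers (1.48, exact permutation *P* = 0.171). Rbfox2 knockout 1 (27.7 CPM) and 2 (21.5 CPM) stood above the other livers, and without either the unadjusted edgeR *P* was no longer under 0.05 (log2 fold change 1.02 and 1.26). The same held without wild-type 2 (1.19) or wild-type 3 (1.33). *Klf9*, a Krüppel-like factor that glucocorticoids raise, was the lower gene beside *Trib1*, at 94.8 ± 10.8 and 68.3 ± 12.7 CPM (−0.47, exact permutation *P* = 0.0286), with no overlap. The gluconeogenic genes *Pck1* (−0.30, exact permutation *P* = 0.257) and *G6pc* (0.13, exact permutation *P* = 0.743) overlapped between genotypes, and were named after their values were seen.

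In the list of genes raised by insulin and feeding, 16 genes were tested. At an unadjusted *P* under 0.05 was 1 (6.25%, against 9.79% of all genes), *Igfbp2* itself. Its place there is uncertain, since hepatic *Igfbp2* has also been described as a gene of fasting. The median log2 fold change of this list was 0.01. *Srebf1*, which encodes SREBP1, was at 25.5 ± 20.3 CPM (SD) in wild-type and 13.1 ± 3.84 CPM in Rbfox2 knockout livers (−0.96, exact permutation *P* = 0.171), with wild-type 4 alone at 55.6 CPM. Without that liver the log2 fold change was −0.23. *Ppp1r3g*, a glycogen-targeting phosphatase subunit, had no overlap (2.03 ± 0.319 and 1.43 ± 0.179 CPM, −0.50, exact permutation *P* = 0.0286).

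Of the 10 tested IGFs, IGF-binding proteins and partners, *Igfbp2* was again the only one at an unadjusted *P* under 0.05 (median log2 fold change 0.12). *Igf1* was at 286 ± 39.2 CPM (SD) in wild-type and 352 ± 45.7 CPM in Rbfox2 knockout livers (0.30, exact permutation *P* = 0.0857). *Ghr*, the growth hormone receptor gene, was at 278 ± 44.8 and 317 ± 101 CPM (0.19, exact permutation *P* = 0.600).

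**Figure D5:**
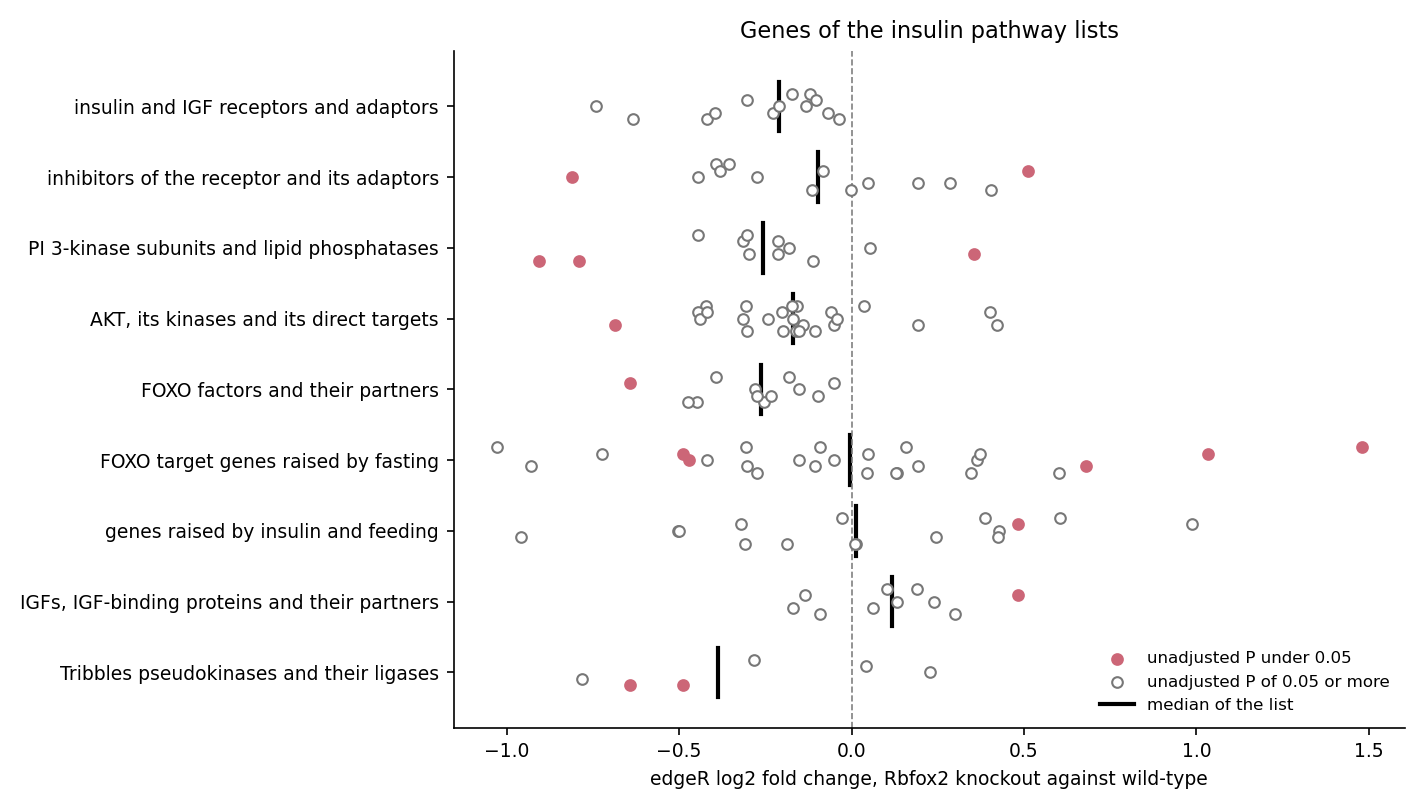
Log2 fold change of Rbfox2 knockout against wild-type livers for each tested gene of the 9 pathway lists (points, filled where the unadjusted edgeR *P* is under 0.05), with the median of each list (black bars). The medians run from −0.39 for the Tribbles list to 0.12 for the IGF list. Each gene of the receptor list and of the FOXO factor list lies below 0, which held for 8 of 13 and 11 of 12 after the length and GC content corrections. Of all genes tested, 51.6% were below 0 before these corrections and 47.5% after them.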

How the data were processed

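RNA-seq of poly(A) RNA from 8 mouse livers was used, 4 wild-type and 4 Rbfox2 knockout, grouped by their labels. The authors aligned 100 base paired-end reads to GRCm38 with TopHat2 (v.2.0.11) and deposited whole-number counts per gene from featureCounts, without normalization. The submitters' processing notes also name CASAVA 1.8.4. The featureCounts version, strand and multi-mapping settings are not given in the sources used here. Gene symbols, positions and merged exon lengths came from GENCODE M21, which matched 45229 of 46078 identifiers, and promoter windows from RefSeq (GRCm38.p6).

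Genotypes were compared with edgeR 4.0.16 in R 4.3.3, using filterByExpr defaults, TMM factors, glmQLFit and glmQLFTest, no covariates, and Benjamini-Hochberg adjustment over 13856 genes. Total counts had a median of 42589090 per liver. Standard errors and 95% intervals are from limma-voom (limma 3.58.1), log2 CPM used a prior count of 2, and permutation tests were exact and two-sided. Alternatives were DESeq2 1.42.0, limma-voom, other scaling factors, other filters, robust estimation, the replicate number as a block, lowess corrections (span 0.3) for length and GC content, and each liver left out. Fits were tested on simulated data.

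The members and lists were chosen with earlier results of these data known. The genes named are the 9 members, *Rbfox2*, the 2 tested genes of smallest *P* in each list and any list gene at an unadjusted *P* under 0.05, and up to 3 genes closest to each member, of which 1 is printed (that for *Pik3r1* is not reported here). *Igfbp3*, *Igfbp5*, *Akt1*, *Igf1r*, *Pck1*, *G6pc*, *Gab2* and *Foxo3* fall outside this rule and were named after their values were seen. Marker lists covered hepatocytes, Kupffer, sinusoidal endothelial, stellate, bile duct, lymphocyte, fat and pancreas cells. No 2 libraries of a genotype were copies (smallest chi-square per degree of freedom 97.8). Figures used matplotlib 3.10.9.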

Additional observations from a re-analysis of the deposited data

Results flagged for a closer look

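Values set apart from their own group were looked for in 60 groups of 4 livers by Dixon's test at the 95% level, and 3 were found, the number that chance gives. *Nnmt* in wild-type 2 was at 107.6 CPM, where the other wild-type livers were at 143.7 to 147.7 CPM. *Socs3* in Rbfox2 knockout 1 was at 1.256 CPM, where the other knockout livers were at 3.344 to 3.529 CPM. *Srebf1* in wild-type 4 was at 55.58 CPM, where the other wild-type livers were at 12.98 to 19.8 CPM. None of the 9 insulin signalling genes had a liver set apart in this way.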

How the results depend on the processing

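Of 189 values of the 9 members under 21 alternatives, 174 kept their direction and 15 reversed, all 15 from *Irs1*, *Akt2*, *Pik3r1* and *Igfbp1*. The log2 fold changes of these 4 genes were 0.081, 0.15, 0.0020 and −0.069 with the length and GC content corrections together, and 0.091, 0.15, 0.018 and −0.12 when the replicate block was added to them. With the length correction alone, *Irs1* was at 0.066, *Pik3r1* at 0.10 and *Igfbp1* at −0.094. With single livers left out, the ranges were −0.37 to 0.16 for *Irs1*, −0.26 to 0.080 for *Pik3r1* and −0.18 to 0.285 for *Igfbp1*. *Ghr* turned to −0.0040 with the GC content correction and to −0.0010 without Rbfox2 knockout 3, in a range up to 0.36 with single livers left out. Across all alternatives *Igfbp2* stayed between 0.30 and 0.68 (unadjusted *P* under 0.05 in 16 of 21) and *Trib1* between −0.65 and −0.20 (11 of 21). DESeq2 gave 10 genes past the adjusted threshold, *Rbfox2* among them (log2 fold change −1.82, adjusted *P* = 1.99e-04), and the other alternatives gave 0. Genes at an unadjusted *P* under 0.05 were 335 with the replicate block, 397 with the block and corrections, and 404 to 3475 with single livers left out, the most without Rbfox2 knockout 2. Pathway genes at that level were 7 with the GC content correction, 4 with the replicate block, 5 with the block and corrections, and 5 to 27 with single livers left out. The replicate numbers are shared by the genotypes, and the labels do not say whether they pair the livers. Correlations of same-numbered livers, as deviations from their group means, were 0.127, −0.613, 0.122 and −0.514. They cannot decide on a pairing, since they also hold the length trend of the libraries. The split of 1102 higher and 254 lower genes was 829 and 338 with upper-quartile factors. The cause of these shifts was not tested. Beside the lists reported, summed sinusoidal endothelial markers were at 82.4 to 110 CPM in wild-type and 73.2 to 96.0 CPM in knockout livers, stellate markers at 68.8 to 136 and 86.7 to 131, bile duct markers at 14.6 to 25.8 and 16.4 to 60.9, lymphocyte markers at 2.51 to 3.81 and 1.81 to 4.16, and fat and pancreas markers at no more than 0.0691 CPM.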
